A study of Mus musculus with 15 samples.

Results

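The genes described here encode the kinesin, dynein and dynactin proteins, the motors that move cargo and chromosomes along microtubules. Members were the genes on the array whose symbol begins with Kif and a digit or with Kifc, Klc, Dync, Dynl or Dctn, taken from the platform annotation or, where that was empty, from the gene description in the deposited table. This rule found 54 genes among 17316 named genes, and 42 of them were above background on at least 5 of the 15 arrays. Tissue of hippocampal field CA3 was cut out by laser microdissection at P0, the day of birth, and total RNA pooled per brain was hybridised to Illumina bead arrays. The 3 groups of 5 arrays were the outer CA3 layer of doublecortin knockout mice (KO outer), the inner CA3 layer of the same 5 KO mice (KO inner) and the undivided CA3 layer of 5 wild-type mice (WT). The labels call the genotypes Mutant and Wild type and the titles say Dcx KO. They name no other allele, no strain, no sex and no treatment for any group. The layers were dissected from bulk tissue, so a lower signal can come from fewer cells of a type or from less RNA per cell, and these cannot be told apart.

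Microtubules have a plus end and a minus end. Most kinesins walk towards the plus end, which in axons points away from the cell body, while cytoplasmic dynein walks towards the minus end and depends on its cofactor dynactin. Neurons use a set of transport kinesins for vesicles, mitochondria and receptors, whereas another set of kinesins works in the spindle of dividing cells. Doublecortin itself binds microtubules in young neurons, and dynein with its regulators pulls the nucleus forward during their migration. The comparison of the layers asks how motor genes differ between the separated CA3 layers of the KO, and the comparisons with WT ask how each layer and the KO animals as a whole differ from the WT layer.

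All levels below are log2 signals after background correction and quantile normalization, a difference is the first group minus the second on that scale, and an error on a difference is its standard error (SE). Detected probes numbered 10688 to 11976 per array, and the precision is set by the number of arrays. The brighter of the Dcx probes averaged 10.61 ± 0.079 in KO outer, 10.49 ± 0.12 in KO inner and 11.96 ± 0.12 in WT (SD, n = 5 each), a difference of −1.41 ± 0.084 between KO animals and WT (adjusted p = 3.44e-05). Of 7 markers of the CA3 field, 5 were above background, while Coch and Iyd were not. Arrays stood apart in ways the groups do not account for. In a table of scores deposited by the authors a shift had been added to 8 arrays, both layers of KO animals 1 to 4, and to none of the other 7, which are those of KO animal 5 (both layers) and of WT. A comparison of the layers lies within animals and so within these sets, whereas a comparison with WT nearly coincides with them. Skeletal muscle or bone transcripts stood high on 7 arrays, which were inner arrays 1, 2 and 5, outer array 1 and WT arrays 1, 2 and 3. The mean level of 9 muscle genes ran from 4.88 to 5.63 on outer, 4.91 to 9.35 on inner and 5.10 to 11.1 on WT arrays.

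Between the KO layers, 1 motor gene rose and 8 fell in the outer layer. These were 9 of 42 tested, or 21.4%, where 21.0% of all 8767 genes tested passed, with 9.59% higher and 11.4% lower, so the share of motor genes called was near that of the array. The median difference was −0.075 over the motor genes, against 0.026 over all genes tested. Those that fell were the mitotic kinesins Kif4, Kif11, Kif22 and Kif2c, the transport kinesins Kifc2, Kif1a and Kif5c, and the dynein light chain Dynlt3. The 1 that rose was the dynein light chain Dynll2. Outer and inner arrays did not overlap for 4 motor genes, Kif4, Kif22, Kifc2 and Dynll2, beside 9.73% of all genes, 3.71% with the outer arrays above and 6.02% with them below.

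**Figure D1:**
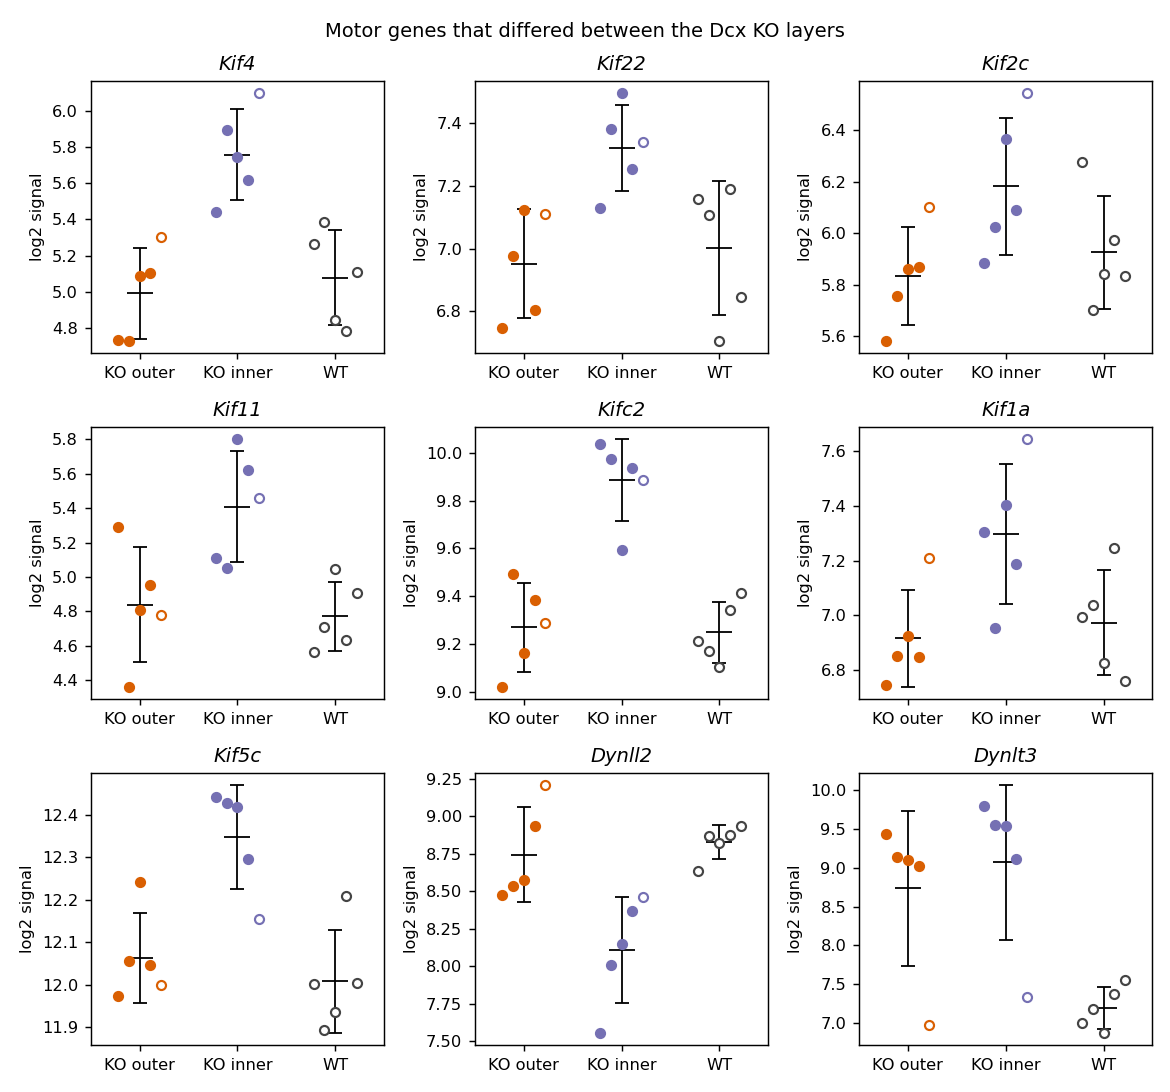
Log2 signal of the 9 motor genes that passed the test between the KO layers, 1 point per array, in KO outer, KO inner and WT (5 arrays each; filled points are arrays that carry the authors' shift, open points those that do not; bars are mean ± SD). Kif4, Kif22 and Kifc2 have every outer array below every inner array, and Dynll2 has every outer array above every inner array.

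Among the mitotic kinesins, 0 rose, 4 fell and 4 did not pass the test in the outer layer, of 8 above background and 10 on the array. Over all genes 11.4% fell. Kif4, Kif11, Kif15, Kif18a, Kif18b and Kif23 were near background, each detected on 5 to 14 arrays, and only Kif22 and Kif2c were detected on all 15, both of them lower in the outer layer. With median scaling and no background correction, or in the authors' scores, 0 of the 4 passed, beside 1.22% and 18% of all genes. Each of the 4 still had a negative difference. Quantile normalization without background correction gave smaller differences for each of them, from −0.27 for Kif4 to −0.16 for Kif2c, and Kif4 and Kif22 passed. Kif14 and Kif20a did not pass the background filter, and the Kif20a probe is described in the deposited table under another gene, Cdc23, so it is uncertain.

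Kif4, a chromosome-bound kinesin that also shortens the midzone microtubules of the late spindle together with Prc1, had log2 signals of 4.74, 4.73, 5.09, 5.11 and 5.30 in KO outer, 5.44, 5.89, 5.74, 5.62 and 6.09 in KO inner and 5.27, 5.39, 4.85, 4.79 and 5.11 in WT. Every outer array lay below every inner array, and the WT arrays lay in the range of the outer layer or just beside it. The difference was −0.77 ± 0.10 (adjusted p = 0.00318), a 1.70-fold lower signal, lower in 5 of 5 animals. The size depended on the background step, with −0.27 without background correction after quantile normalization (adjusted p = 0.00525) or median scaling (adjusted p = 0.186). It was detected on 3 outer, 5 inner and 3 WT arrays.

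Kif22, a kinesin that pushes chromosome arms towards the spindle equator, measured 6.75, 6.98, 7.12, 6.80 and 7.11 in KO outer, 7.13, 7.38, 7.495, 7.26 and 7.34 in KO inner and 7.16, 7.11, 6.71, 7.19 and 6.85 in WT. Outer and inner arrays did not overlap, and WT arrays reached from just below the lowest outer array to just above the lowest inner array. The difference was −0.37 ± 0.071 (adjusted p = 0.0122), with the outer layer lower in 5 of 5 animals. For Kif2c, which removes tubulin from microtubule ends at the centromere, the signals were 5.58, 5.76, 5.86, 5.87 and 6.10 in KO outer, 5.89, 6.02, 6.37, 6.09 and 6.54 in KO inner and 6.28, 5.70, 5.84, 5.97 and 5.83 in WT. Animal 5 was the highest of its group in both layers, and the groups overlapped although each animal had less in its outer layer. The difference was −0.35 ± 0.076 (adjusted p = 0.0194).

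Kif11, which slides antiparallel microtubules apart to set up a bipolar spindle, had 5.29, 4.36, 4.81, 4.95 and 4.78 in KO outer, 5.11, 5.05, 5.80, 5.62 and 5.46 in KO inner and 4.57, 4.71, 5.05, 4.63 and 4.91 in WT. Outer array 1 lay within the inner range and the other 4 outer arrays below it. Its difference of −0.57 ± 0.16 (adjusted p = 0.0411) held in 4 of 5 animals, and without animals 2, 3, 4 or 5 its adjusted p lay between 0.101 and 0.108. Kif11 passed the background filter only through the inner arrays, with detection on 2 outer, 5 inner and 1 WT array, so its difference is not independent of that filter.

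Of the 4 that did not pass, Kif15, a motor that can stand in for Kif11, differed by −0.27 ± 0.079 (adjusted p = 0.0515) and Kif23, part of the complex that organises the cleavage furrow, by −0.33 ± 0.11 (adjusted p = 0.0746). Both had a lower value in the outer layer of all 5 animals. The Kif18b result depended on the probe. Its brighter kept probe differed by −0.32 ± 0.14 (adjusted p = 0.159) and its other kept probe by −0.64 (adjusted p = 0.00427). That other probe passed the background filter only through the inner arrays, with detection on 2 outer, 5 inner and 1 WT array, so its difference is not independent of the filter. Kif18a, which limits the swings of chromosomes in metaphase, was the mitotic kinesin with a value above 0, at 0.11 ± 0.082 (adjusted p = 0.370). No WT array detected it, and only 3 outer and 2 inner arrays did.

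**Figure D2:**
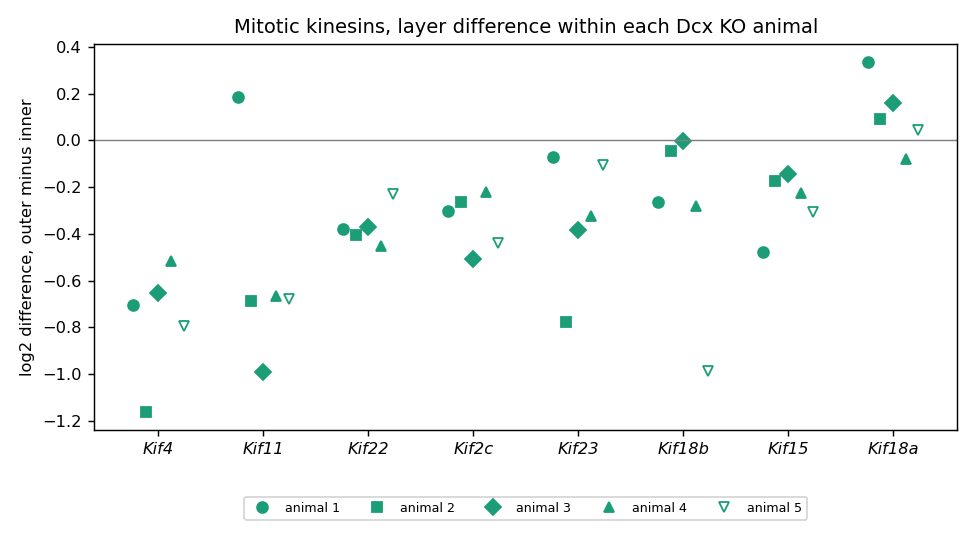
Log2 difference of 8 mitotic kinesins, KO outer minus KO inner, 1 point per KO animal (animals 1 to 5 by marker shape; the open marker is animal 5, whose arrays carry no shift). Kif4, Kif22 and Kif2c are below 0 in all 5 animals, Kif11 in 4 of 5, and Kif18a is above 0 in 4 of 5.

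Promoters are shown for the mitotic kinesins that fell, because genes used in cell division often carry the cell cycle element TTTGAA together with CCAAT boxes near their start, and for Kif5c, a transport kinesin that fell, beside them. Each window runs from 250 bases before to 50 bases after the annotated start, is given 5′ to 3′ on the strand of the gene, and comes from RefSeq for GRCm38.p6, in which 41 of the 54 members were found. Capitals mark the motif TTTGAA, which reads TTCAAA when it lies on the opposite strand, and the motif CCAAT, which then reads ATTGG. No matches overlap. The windows lie at chrX:100625815-100626114 on the plus strand for Kif4, chr7:127042371-127042670 on the minus strand for Kif22, chr4:117178723-117179022 on the minus strand for Kif2c, chr19:37376132-37376431 on the plus strand for Kif11 and chr2:49619036-49619335 on the plus strand for Kif5c.
Kif4: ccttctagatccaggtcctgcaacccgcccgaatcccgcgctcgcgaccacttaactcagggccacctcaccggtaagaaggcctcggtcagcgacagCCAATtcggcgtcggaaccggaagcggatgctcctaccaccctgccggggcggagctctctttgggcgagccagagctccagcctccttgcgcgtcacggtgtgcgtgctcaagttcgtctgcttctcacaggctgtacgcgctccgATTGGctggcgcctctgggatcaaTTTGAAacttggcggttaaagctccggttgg
Kif22: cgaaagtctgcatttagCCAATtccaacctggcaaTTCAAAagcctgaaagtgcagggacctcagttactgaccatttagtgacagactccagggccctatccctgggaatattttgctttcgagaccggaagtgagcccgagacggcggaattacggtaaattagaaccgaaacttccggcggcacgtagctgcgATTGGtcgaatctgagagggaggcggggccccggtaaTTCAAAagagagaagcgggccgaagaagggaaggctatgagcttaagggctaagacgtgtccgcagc
Kif2c: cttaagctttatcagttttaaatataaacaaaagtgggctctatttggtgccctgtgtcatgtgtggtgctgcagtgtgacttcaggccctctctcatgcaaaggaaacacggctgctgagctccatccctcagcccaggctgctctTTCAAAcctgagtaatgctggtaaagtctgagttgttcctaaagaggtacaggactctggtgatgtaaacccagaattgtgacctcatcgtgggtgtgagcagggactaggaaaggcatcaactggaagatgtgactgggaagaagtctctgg
Kif11: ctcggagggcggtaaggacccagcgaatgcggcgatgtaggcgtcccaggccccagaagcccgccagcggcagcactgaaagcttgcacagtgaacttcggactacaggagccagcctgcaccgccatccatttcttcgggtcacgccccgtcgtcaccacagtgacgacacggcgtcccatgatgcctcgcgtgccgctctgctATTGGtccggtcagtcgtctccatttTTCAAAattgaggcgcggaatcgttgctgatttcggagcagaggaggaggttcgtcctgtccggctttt
Kif5c: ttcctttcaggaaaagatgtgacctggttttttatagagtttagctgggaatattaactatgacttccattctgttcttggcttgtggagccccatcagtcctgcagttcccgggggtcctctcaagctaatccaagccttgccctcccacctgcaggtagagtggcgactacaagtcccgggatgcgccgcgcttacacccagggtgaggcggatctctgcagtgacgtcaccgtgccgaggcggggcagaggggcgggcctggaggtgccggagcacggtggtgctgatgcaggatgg

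The Kif4 window held 1 TTTGAA and 2 CCAAT matches, with the TTTGAA match starting at 19 from the annotated start. The Kif22 window held 2 of each, and 1 of its TTTGAA matches started at −17 and 1 at −215. The Kif11 window held 1 of each, at −19 for TTTGAA and −45 for CCAAT. In Kif2c a single TTTGAA match began at −103 and no CCAAT was found, and neither sequence was found in the Kif5c window. Kif1a, another transport kinesin that fell, has 2 windows, not printed here, and TTTGAA stood in at least 1 of them and CCAAT in neither. With either strand counted, TTTGAA stood in the windows of 8 of 9 mitotic kinesin genes and of 4 of 32 other motor genes, counting a gene if any of its windows held it, beside 20.2% of all 27025 genes with a window (17.9% of 32851 windows). CCAAT stood in 6 of 9 and in 13 of 32, beside 41.1% of all genes (37.4% of windows). A match is a description of the letters and does not show that a factor binds there.

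Genes that work with the mitotic kinesins in the spindle were also lower or not called in the outer layer. Of 30 spindle and cell division partners listed, 27 were on the array and 17 above background. In the outer layer 0 of the 17 rose and 6 fell, where 9.59% of all genes rose and 11.4% fell. Their median difference was −0.22 against 0.026 over all genes. The difference was negative for 13 of them and positive for 4, up to 0.24. Prc1, which bundles the midzone microtubules on which Kif4 acts, averaged 7.53 in KO outer and 8.37 in KO inner, a difference of −0.84 ± 0.097 (adjusted p = 0.00176). Cdk1, the kinase that drives entry into mitosis, differed by −0.86 ± 0.12 and its cyclin Ccnb1 by −0.77 ± 0.14. Anln, an actin-binding protein of the cleavage furrow, and Birc5, a subunit of the chromosomal passenger complex, differed by −0.51 ± 0.086 and −0.50 ± 0.088. Each of these 5 was lower in the outer layer of all 5 animals. Bub1b, the other of the 6 that fell, averaged 4.97 in KO outer and 5.46 in KO inner. How many arrays of each layer detected a partner is not given here. Calls of dim partners between the layers may therefore not be independent of the background filter.

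Markers of dividing cells, radial glia, other glia and vessels stood lower in the outer layer as well. Over all genes 9.59% rose and 11.4% fell, and the counts below stand beside these shares. Of 10 markers of proliferating cells, 7 were above background, and 0 rose and 4 fell, among them Cdk1, also counted with the spindle partners. Their mean level was 6.24 to 6.62 on outer, 6.84 to 7.06 on inner and 6.22 to 6.80 on WT arrays, and Pcna and Ccna2 were not above background. Of 10 radial glia markers, 8 were above background, and 0 rose and 6 fell, with means of 7.36 to 7.59 on outer, 7.86 to 8.19 on inner and 7.23 to 7.51 on WT arrays. Of 5 endothelial markers, 4 were above background and all 4 fell, at 6.73 to 7.16 on outer, 7.49 to 7.95 on inner and 7.02 to 7.53 on WT arrays. Of 5 microglia markers, 3 were above background and all 3 fell, at 4.97 to 5.53 on outer, 5.95 to 7.08 on inner and 4.91 to 6.77 on WT arrays. Inner arrays 1, 2 and 5, high in muscle or bone transcripts, had microglia means of 6.91, 7.08 and 6.42. Inner arrays 3 and 4, low in both, had 6.08 and 5.95. The part of muscle or bone tissue in these levels was not tested. How many arrays of each group detected a marker is not given here, so calls of dim markers may not be independent of the background filter. Of 6 markers of the oligodendrocyte lineage, 4 were above background, and 0 rose and 3 fell, at 7.20 to 7.45 on outer, 7.96 to 8.17 on inner and 7.11 to 7.498 on WT arrays. Of 5 astrocyte markers, 3 were above background, and 0 rose and 2 fell, at 6.47 to 6.85 on outer, 7.37 to 7.76 on inner and 6.09 to 6.72 on WT arrays. The defining markers Olig2, Gfap and Aqp4 were not above background. Nor were Pax6 and Fabp7 of the radial glia, C1qa and Csf1r of the microglia and Kdr of the endothelial list. The part of these cell types in the kinesin differences was not tested.

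In the transport group, 3 of 12 kinesins above background fell in the outer layer and 0 rose, while 9 did not pass the test. Over all genes 21.0% passed and 11.4% fell. Their median difference of −0.053 compares with −0.34 for the mitotic kinesins and 0.026 for all genes tested. Of 15 on the array, Kif17, Kif1c and Kif5b did not pass the background filter. Neuron markers also differed between the layers. Of 7 pyramidal neuron markers, all above background, 2 rose and 4 fell, with means of 8.91 to 9.21 on outer, 9.35 to 9.66 on inner and 8.95 to 9.22 on WT arrays. Of 5 interneuron markers, 4 were above background, 0 rose and 3 fell, with means of 8.78 to 9.05 on outer, 9.27 to 9.50 on inner and 8.19 to 8.74 on WT arrays, and Gad2 was not above background. Their part in the transport kinesin values was not tested.

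Kifc2, a minus-end directed kinesin of the nervous system, had 9.02, 9.49, 9.16, 9.38 and 9.29 in KO outer, 10.04, 9.97, 9.59, 9.94 and 9.89 in KO inner and 9.21, 9.17, 9.10, 9.34 and 9.42 in WT. Inner arrays stood above all outer and all WT arrays, which covered about the same range. Between the layers the difference was −0.62 ± 0.10 (adjusted p = 0.00670), a 1.53-fold lower signal in the outer layer, lower in 5 of 5 animals. Kif1a, which carries synaptic vesicle precursors down the axon, had 6.75, 6.85, 6.92, 6.85 and 7.21 in KO outer, 7.30, 6.95, 7.40, 7.19 and 7.64 in KO inner and 6.99, 7.04, 6.82, 7.25 and 6.76 in WT. As for Kif2c, animal 5 was highest in both layers, and the groups overlapped through outer array 5. The difference was −0.38 ± 0.087 (adjusted p = 0.0213), lower in each animal.

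Kif5c, a neuronal heavy chain of conventional kinesin, had 11.97, 12.06, 12.24, 12.05 and 11.999 in KO outer, 12.44, 12.43, 12.42, 12.30 and 12.15 in KO inner and 12.002, 11.89, 11.94, 12.21 and 12.003 in WT. Inner array 5 lay below outer array 3, and the other 4 inner arrays lay above all outer arrays. The layers differed by −0.28 ± 0.079 (adjusted p = 0.0412), with the outer one lower in 5 of 5 animals, but leaving out any 1 of the 5 animals took the adjusted p to between 0.0615 (without animal 5) and 0.120 (without animal 1). Its relative Kif5a differed by 0.014 ± 0.088 (adjusted p = 0.927).

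The kinesin-2 subunits did not pass the test. Kif3a, Kif3b and Kif3c, motor subunits of a family that serves axonal and ciliary transport, differed by 0.11 ± 0.081, 0.15 ± 0.077 and −0.12 ± 0.078. The remaining transport kinesins, Kif1b, Kif13a, Kif21a, Kif21b and Kifc3, had differences from −0.23 (Kif13a) to 0.12 (Kif21b). The lowest adjusted p among the 9 that were not called was 0.166, for Kif1b.

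**Figure D3:**
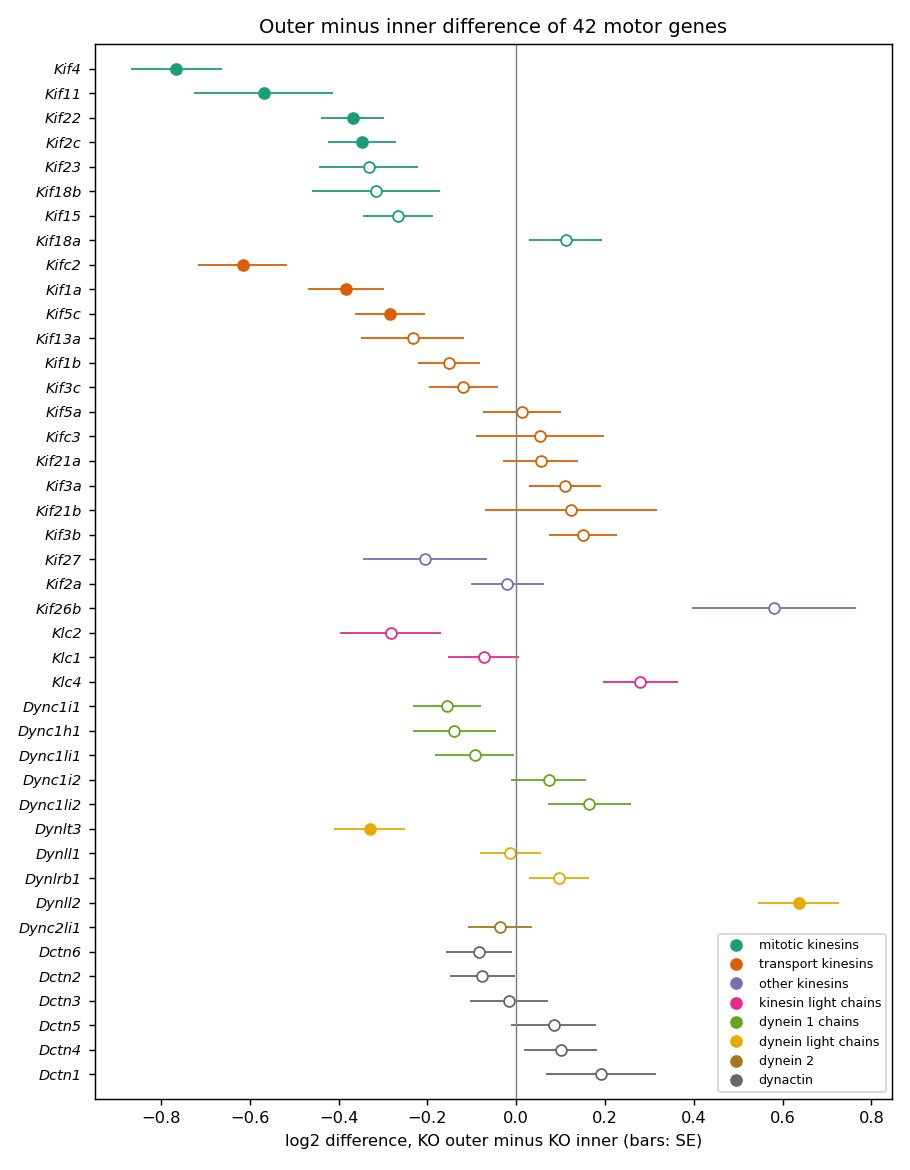
Log2 difference, KO outer minus KO inner, of the 42 motor genes above background (points with SE; filled points passed at an adjusted p under 0.05), ordered by role from mitotic kinesins at the top to dynactin at the bottom. The called genes are 4 mitotic kinesins, 3 transport kinesins and 2 dynein light chains, and the 6 dynactin subunits lie between −0.08 and 0.19.

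Other kinesins and the light chains gave no call between the layers. Kif2a, which shortens microtubules at growing neurites, differed by −0.020 ± 0.082 (adjusted p = 0.882). Kif26b, detected on 4 outer, 1 inner and 4 WT arrays, had the largest value of these at 0.58 ± 0.18 (adjusted p = 0.0626), higher in 4 of 5 animals. Kif27 passed the background filter only through the inner arrays and differed by −0.21 ± 0.14. Among the light chains, which link conventional kinesin to cargo, Klc4 differed by 0.28 ± 0.085 (adjusted p = 0.0547), Klc2 by −0.28 ± 0.11 (adjusted p = 0.119) and Klc1 by −0.073 ± 0.080 (adjusted p = 0.549). Kif2b, Kif9, Kif12, Kif24 and Klc3 did not pass the background filter, and the Klc3 probe is described in the deposited table as Ercc2.

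The 5 chains of cytoplasmic dynein 1 were all above background and none passed the test between the layers (at an unadjusted p under 0.05, 0 of them did). The heavy chain Dync1h1, which holds the motor domain, had 10.94, 10.89, 10.76, 10.98 and 11.22 in KO outer, 10.86, 11.26, 10.96, 11.26 and 11.15 in KO inner and 11.32, 11.32, 11.13, 11.25 and 11.06 in WT. The 3 groups overlapped. Its difference was −0.14 ± 0.094 (adjusted p = 0.324). The intermediate chains Dync1i1 and Dync1i2, which bind dynactin, differed by −0.16 ± 0.077 and 0.073 ± 0.084, and the light intermediate chains Dync1li1 and Dync1li2, which bind cargo adapters, by −0.094 ± 0.090 and 0.16 ± 0.093. Dync2li1, a light intermediate chain of the ciliary dynein 2, differed by −0.036 ± 0.073 (adjusted p = 0.752).

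Of 4 dynein light chains above background, 1 rose and 1 fell in the outer layer, where 9.59% of all genes rose and 11.4% fell. Dynll2, a light chain of the LC8 type that also binds proteins outside the dynein complex, had 8.48, 8.54, 8.57, 8.93 and 9.21 in KO outer, 7.56, 8.01, 8.15, 8.37 and 8.46 in KO inner and 8.64, 8.87, 8.82, 8.87 and 8.94 in WT. Every outer array stood above every inner array, and WT arrays lay within the outer range. The outer layer was higher by 0.64 ± 0.091 (adjusted p = 0.00412), or 1.55-fold, in 5 of 5 animals. Its close relative Dynll1 measured 13.51, 13.31, 13.38, 13.35 and 13.38 in KO outer, 13.58, 13.22, 13.42, 13.36 and 13.43 in KO inner and 13.63, 13.44, 13.53, 13.63 and 13.39 in WT. The 3 groups overlapped and the difference between the layers was −0.013 ± 0.069 (adjusted p = 0.908), so a difference was detected for one LC8 gene and not for the other, and whether they differ from each other was not tested. Markers of intermediate progenitors and newborn neurons stood high in the outer layer too. Of 7 listed, 5 were above background and 5 rose, with means of 8.85 to 9.16 on outer, 7.57 to 8.01 on inner and 8.33 to 8.61 on WT arrays, while Eomes and Btg2 were not above background. Their part in the Dynll2 difference was not tested.

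Dynlt3, a light chain of the Tctex type, had 9.44, 9.14, 9.10, 9.03 and 6.98 in KO outer, 9.80, 9.55, 9.54, 9.11 and 7.34 in KO inner and 7.01, 7.18, 6.88, 7.38 and 7.55 in WT. In both layers the arrays of animal 5 lay well below those of animals 1 to 4, and among the WT arrays. Within each animal the outer layer was lower, with a difference of −0.33 ± 0.080 (adjusted p = 0.0274). Dynlrb1, a light chain of the roadblock type, differed by 0.096 ± 0.068 (adjusted p = 0.346). Dynlrb2 and Dynlt1b did not pass the background filter.

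The brightest probe of each of the 6 dynactin subunits was detected on all 15 arrays, and by these probes none passed the test between the layers or against WT in any comparison (at an unadjusted p under 0.05, 0 did between the layers, 1 in the inner layer, 2 in the outer layer and 1 over KO animals). Dctn1, the arm of dynactin that grips the microtubule, had 8.64, 8.51, 7.99, 7.88 and 8.05 in KO outer, 7.98, 8.13, 8.13, 7.92 and 7.95 in KO inner and 8.16, 8.35, 7.96, 8.42 and 8.45 in WT. Outer arrays 1 and 2 were higher than the other KO arrays, and all 3 groups overlapped. Dctn2, the subunit of the shoulder of dynactin, had 12.56, 12.54, 12.50, 12.49 and 12.62 in KO outer, 12.83, 12.56, 12.54, 12.55 and 12.62 in KO inner and 12.72, 12.78, 12.73, 12.72 and 12.68 in WT. Every outer array was below every WT array, while inner array 1 lay above all WT arrays. Between the layers Dctn1 differed by 0.19 ± 0.12 and Dctn2 by −0.076 ± 0.074, and Dctn3, Dctn4, Dctn5 and Dctn6 lay between −0.084 and 0.10. A dim further probe of Dctn2, detected on 2 outer, 2 inner and 4 WT arrays, differed by −0.38 between KO animals and WT (adjusted p = 0.0440), while the other two kept probes of the gene did not pass. That probe passed the background filter only with the WT arrays, so its difference is not independent of the filter.

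Of 38 adapters and regulators listed as partners of the motors, 35 were on the array and 29 above background, and in the outer layer 2 rose and 2 fell, where 21.0% of all genes passed. Trak1, which couples mitochondria to kinesin and dynein, averaged 9.48 in KO outer and 9.19 in KO inner and differed by 0.28 ± 0.066 (adjusted p = 0.0244). Fez2, a relative of a kinesin adapter of axons, differed by 0.37 ± 0.098 (adjusted p = 0.0354). Bicd2, which joins dynein to dynactin and to cargo, averaged 9.69 in KO outer and 10.07 in KO inner and differed by −0.38 ± 0.083 (adjusted p = 0.0195). Grip1, which links glutamate receptors to conventional kinesin, differed by −0.26 ± 0.074 (adjusted p = 0.0426). The median over the 29 was −0.028, against 0.026 over all genes tested. Against WT, 6 of the 29 were higher and 2 lower in the inner layer, beside 29.5% of all genes called, and in the outer layer 5 exceeded WT and 2 were below it, beside 15.2%. With the array sets as a term 0 passed in limma in either (at an unadjusted p under 0.05, 2 in the inner and 3 in the outer layer).

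The layer differences were looked at within the array sets and without the arrays rich in muscle or bone RNA. In animal 5 alone, whose arrays carry no shift, the 9 called genes differed in the same direction as the mean of animals 1 to 4, with Kif4 at −0.79 against −0.76, Kifc2 at −0.60 against −0.62, Dynll2 at 0.75 against 0.61 and Kif22 at −0.23 against −0.40. In animals 3 and 4, whose arrays were all low in both sets of transcripts, the difference was −0.58 for Kif4, −0.41 for Kif22, −0.36 for Kif2c and −0.83 for Kif11. It was −0.49 for Kifc2, −0.41 for Kif1a, −0.21 for Kif5c, 0.49 for Dynll2 and −0.26 for Dynlt3. With these 2 animals 1 of the 9 passed the test, where 3.87% of all genes did. This was Kif11, which passed the background filter only through the inner arrays, so its call is not independent of that filter. Leaving out 1 animal at a time kept the calls of Kif4, Kif22, Kifc2 and Dynll2 in all 5 cases. Dynlt3 kept its call only without animal 4, Kif1a only without animal 2, and Kif2c only without animal 2 or animal 4, with adjusted p up to 0.0811, 0.0724 and 0.0597.

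Against WT, the inner layer had 8 motor genes higher and 3 lower, or 11 of 42 (26.2%), where 29.5% of all genes passed, 13.8% higher and 15.7% lower. Higher were Kifc2, Kif4, Kif11, Kif18a, Kif2a, Kif5c, Dync1li1 and Dynlt3, and lower were Dynll2, Dync2li1 and Klc4. The outer layer had 4 higher, Kif2a, Kif18a, Kif21b and Dynlt3, and 1 lower, Dync2li1, or 5 of 42 (11.9%) beside 15.2% of all genes, 8.35% higher and 6.89% lower. KO animals, with both layers averaged, had 5 higher, the same 4 and Kifc2, and 1 lower, Dync2li1, or 6 of 42 (14.3%) beside 22.5% of all genes, 11.4% higher and 11.1% lower. These comparisons share the WT arrays, and those of KO animals share the KO arrays too. With the 2 array sets as a term in the fit no motor gene passed in any of the 3 comparisons, beside 0.0798%, 0.0114% and 0.0114% of all genes. At an unadjusted p under 0.05 in limma, 9 of 42 did in the inner layer, 1 in the outer layer and 4 over KO animals. Of all 8767 genes, 867, 563 and 332 did so at that unadjusted threshold. That fit rests on the arrays of KO animal 5 against WT.

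Kif4, Kif11 and Kifc2 kept about the size of their inner layer difference, or exceeded it, with the array sets as a term. For Kif4 the inner layer exceeded WT by 0.68 ± 0.15 (adjusted p = 0.0107), and by 1.01 ± 0.24 with the term (adjusted p = 0.156). For Kif11 the values were 0.64 ± 0.16 (adjusted p = 0.0156) and 0.69 ± 0.28 with the term (adjusted p = 0.486), for a probe that passed the background filter only through these inner arrays and was detected on 1 WT array. For Kifc2 they were 0.64 ± 0.11 (adjusted p = 0.00362) and 0.64 ± 0.18 (adjusted p = 0.283). Inner and WT arrays did not overlap for these 3 genes, nor for Kif2a and Dynll2, 5 of 42 beside 16.7% of all genes, 6.16% with the inner arrays above and 10.5% with them below. Outer and WT arrays did not overlap for 4 of 42, with Kif2a, Kif18a and Kif3a above and Dctn2 below, beside 9.06% of all genes, 2.58% above and 6.48% below. In the outer layer the same 3 genes differed from WT by −0.088 ± 0.15, 0.068 ± 0.16 and 0.020 ± 0.11, with adjusted p of 0.714, 0.798 and 0.916.

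All 8 mitotic kinesins had a value above WT in the inner layer, from 0.26 to 0.68, with a median of 0.34 against −0.068 over all genes, and 3 of them, Kif4, Kif11 and Kif18a, passed the test. Of these, Kif11 passed the background filter only through the inner arrays and Kif18a only through KO arrays, so their calls as higher than WT are not independent of the filter, and the count is given as a description. In the outer layer their median difference from WT was −0.043, against −0.074 over all genes. Of the 17 spindle partners, 6 rose and 1 fell in the inner layer relative to WT, where 13.8% of all genes rose and 15.7% fell. In the outer layer 0 of the 17 passed in limma (3 at an unadjusted p under 0.05). The WT means of the partners went down to 4.47, for Spc25, which was among the 6. How many arrays of each group detected a partner is not given here, so calls of dim ones may not be independent of the background filter. With the array sets as a term 0 of the 17 passed in either layer (at an unadjusted p under 0.05, 4 in the inner and 2 in the outer layer). Of the 7 markers of proliferating cells, which share Cdk1 with the partners, 4 rose in the inner layer relative to WT. In the outer layer 0 of these markers passed. The part of cell number in the kinesin values was not tested.

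Dynll2 was lower in the inner layer, with a difference from WT of −0.72 ± 0.16 (adjusted p = 0.00977), and of −0.37 ± 0.25 with the array sets as a term (adjusted p = 0.738). In the outer layer it differed from WT by −0.082 ± 0.14 (adjusted p = 0.717). Kif5c was higher in the inner layer by 0.34 ± 0.094 (adjusted p = 0.0227), and by 0.15 ± 0.15 with the term (adjusted p = 0.844). Dync1li1 had 7.15, 7.85, 7.20, 7.64 and 7.11 in KO outer, 7.18, 7.77, 7.26, 7.67 and 7.53 in KO inner and 7.02, 6.88, 7.33, 7.10 and 7.16 in WT. Inner and WT arrays overlapped, with every inner array above the WT median. The inner layer was higher by 0.39 ± 0.13 (adjusted p = 0.0496), and by 0.44 ± 0.24 with the term (adjusted p = 0.649).

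Several of the differences from WT followed the array sets. For 7 of the 42 motor genes, Dynlt3, Kif21b, Kif2a, Kif18a, Dync2li1, Klc4 and Dctn6, every array of KO animals 1 to 4 lay on one side of every array of animal 5 and WT, beside 12.4% of all 8767 genes, 8.98% with animals 1 to 4 above and 3.38% with them below. Dynlt3, whose values stand above, ran from 9.03 to 9.80 on the 8 shifted and from 6.88 to 7.55 on the 7 unshifted arrays. It was higher in KO animals than in WT by 1.70 ± 0.40 (adjusted p = 0.0213), whereas the fit with the array sets gave −0.040 ± 0.25 (adjusted p = 0.9996).

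Kif21b, a transport kinesin that also restrains microtubule growth, had 6.63, 6.39, 6.13, 6.63 and 5.58 in KO outer, 6.13, 5.96, 6.996, 6.39 and 5.27 in KO inner and 5.51, 5.36, 5.35, 5.56 and 5.88 in WT. Arrays of animal 5 lay among or below the WT arrays and those of animals 1 to 4 above them all. The outer layer exceeded WT by 0.74 ± 0.20 (adjusted p = 0.0330), and the fit with the term gave 0.053 ± 0.23 (adjusted p = 0.969). Over KO animals it was 0.68 ± 0.20 without and −0.11 ± 0.21 with the term.

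Kif2a had 9.77, 9.998, 10.11, 10.20 and 9.61 in KO outer, 9.93, 9.84, 10.09, 10.39 and 9.53 in KO inner and 9.17, 9.16, 9.37, 9.48 and 9.45 in WT. All 10 KO arrays lay above all WT arrays, with those of animal 5 lowest among the KO arrays. KO animals exceeded WT by 0.62 ± 0.13 (adjusted p = 0.0196), and by 0.24 ± 0.19 with the term (adjusted p = 0.9996). Kif18a, close to background throughout, had 5.29, 4.57, 5.003, 4.87 and 4.36 in KO outer, 4.95, 4.48, 4.84, 4.95 and 4.32 in KO inner and 4.32, 4.19, 4.24, 4.36 and 4.197 in WT. Arrays of animal 5 again lay at the level of WT, where no array detected the gene, so neither a fold nor a difference is given. It passed the background filter only through KO arrays, and its calls against WT rest on that.

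Dync2li1 had 8.04, 7.65, 7.98, 7.77 and 8.12 in KO outer, 8.05, 7.82, 7.88, 7.80 and 8.20 in KO inner and 8.11, 8.49, 8.29, 8.31 and 8.27 in WT. Arrays of animals 1 to 4 lay below all others, and those of animal 5 within the WT range. KO animals were lower, with a difference of −0.36 ± 0.10 (adjusted p = 0.0330), and of −0.13 ± 0.16 with the term (adjusted p = 0.9996). Klc4 had 6.56, 6.32, 6.41, 6.68 and 7.05 in KO outer, 6.39, 6.13, 5.87, 6.54 and 6.70 in KO inner and 6.69, 6.82, 6.72, 6.83 and 6.81 in WT. Again animals 1 to 4 were low in both layers and animal 5 was at or above the WT level. The inner layer was lower than WT, with a difference of −0.45 ± 0.14 (adjusted p = 0.0387), and of −0.071 ± 0.21 with the term (adjusted p = 0.965).

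**Figure D4:**
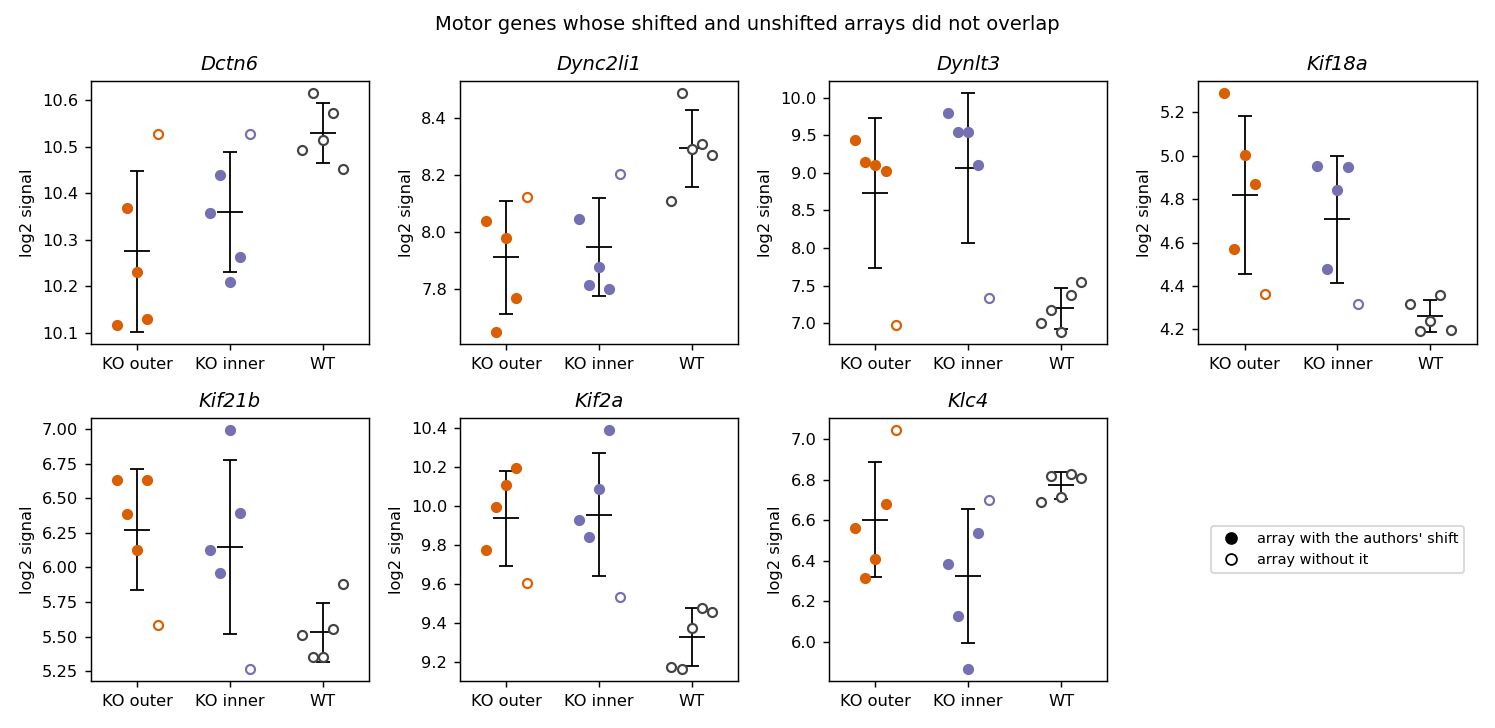
Log2 signal of the 7 motor genes whose 8 shifted arrays (filled, KO animals 1 to 4) and 7 unshifted arrays (open, KO animal 5 and WT) do not overlap, 1 point per array in KO outer, KO inner and WT (5 arrays each; bars are mean ± SD). The open KO points lie at or near the WT points, most clearly for Dynlt3, at 6.98 in the outer and 7.34 in the inner layer.

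Calls against WT in the outer layer also hung on single arrays. The 5 calls became 0 without outer array 2, 3 or 4 or WT array 2 or 3, 1 without outer array 1 or WT array 1 or 4, 3 without WT array 5 and 10 without outer array 5. The share of all genes called moved as well, from 15.2% to 0.057%, 0.0342% and 0.0456% without outer array 2, 3 or 4. It was 1.98% and 2.22% without WT array 2 or 3, and 31.4% without outer array 5. For KO animals the 6 calls became 0 without KO animal 2, 3 or 4, 3 without KO animal 1, 2 without WT array 2, 3 or 4 and 10 without KO animal 5. Of all genes 22.5% were called in that comparison. Without KO animal 2, 3 or 4 the share was 0.262%, 0.148% and 0.262%, and without KO animal 5 it was 36.1%. In the inner layer the 11 calls became 6 without WT array 2 and 7 without inner array 3 or WT array 5. There the share of all genes went from 29.5% to 20.4%, 20% and 23.6%. Kifc2, Kif4, Kif11, Kif2a, Dynll2 and Dynlt3 passed in all 10 inner layer fits that left out 1 array. Kif5c passed in 6 of the 10, Kif18a in 4, Dync2li1 and Dync1li1 in 3 each and Klc4 in 2, with adjusted p up to 0.0561, 0.0661, 0.0797, 0.112 and 0.0857. Without the arrays rich in muscle or bone RNA, 8 motor genes passed in the inner layer, 0 in the outer layer and 0 over KO animals. Of all genes 16.2%, 0.0228% and 0% passed in these 3 comparisons.

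Besides Kif18b and Dctn2, 2 more genes gave different answers by probe. Of the 42 genes, 11 had more than 1 kept probe, and the brightest stood for the gene. Klc1, the main neuronal kinesin light chain, had 5 kept probes, each detected on all 15 arrays. Their differences between KO animals and WT were 0.05 for the brightest and 0.38, 0.26, −0.46 and 0.39 for the others. Kif1b, a relative of Kif1a with isoforms for mitochondria and for vesicles, had 6 kept probes with differences of 0.04 for the brightest and 1.47, −0.49, 0.57, 0.39 and 0.10 for the others. For Klc1, 2 of the others passed as higher and 1 as lower, and for Kif1b the same numbers did, whereas between the KO layers no probe of either gene passed. These comparisons with WT nearly coincide with the array sets. With the sets as a term the brightest probes differed by 0.14 for Kif1b and −0.011 for Klc1 over KO animals. For the further probes, that of Dctn2 included, this fit is not given here. Where these probes lie in the transcripts is not stated in the labels or files used here.

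**Figure D5:**
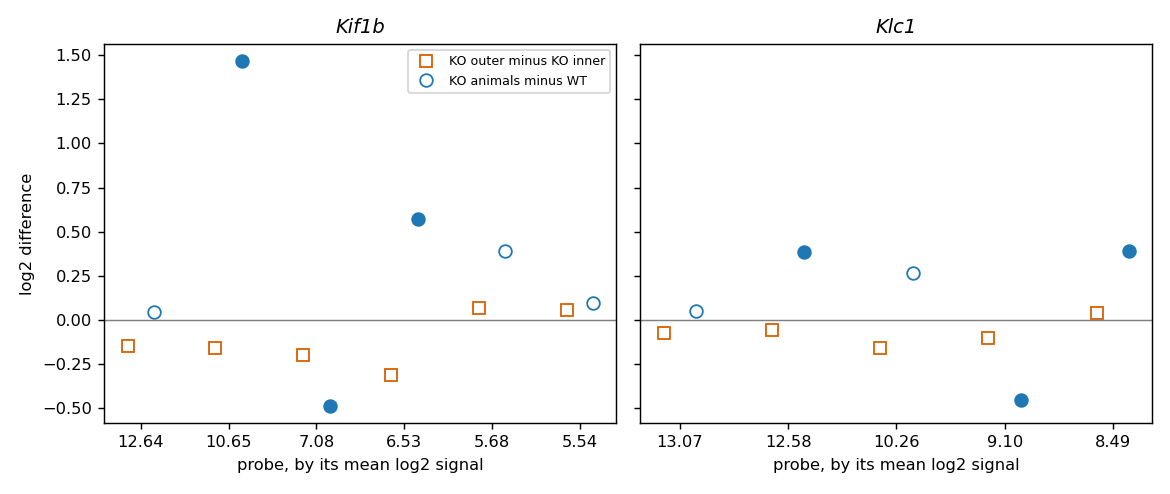
Log2 differences of the 6 kept Kif1b probes and the 5 kept Klc1 probes, ordered along the horizontal axis by mean log2 signal, for KO outer minus KO inner (squares) and KO animals minus WT (circles); filled markers passed at an adjusted p under 0.05. The squares stay between −0.31 and 0.07, while the circles run from −0.49 to 1.47 for Kif1b and from −0.46 to 0.39 for Klc1.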

How the data were processed

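The authors deposited log2 signals for each probe and array in 2 copies, which hold the same values, and a table of scores. When recomputed, a score equalled the log2 signal centred on the array's median and scaled by its SD, with a shift for each entry added on 8 arrays. The submitters' processing notes name limma without a role or version, and bead summary and background correction are not given in the sources used here. The test design assumed raw signals with detection p-values, which neither table has. After conversion from the log2 scale, signals went through neqc in limma 3.58.1 (R 4.3.3, offset 16), which corrects background on negative controls, here 1116, and then applies quantile normalization. The controls were entries without a probe, within 0.5 of the array median on the log2 scale on every array; 8 brighter ones were set aside. Probes with a detection p under 0.01, the share of controls at or above the signal, on at least 5 of 15 arrays were kept (11998, or 46.7%). The brightest kept probe stood for a gene.

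Models were fitted with lmFit and eBayes, two-sided. P-values were adjusted by Benjamini-Hochberg over the 11998 probes, and an adjusted p under 0.05 was called. The layers were compared with the animal as a block, since the series design takes both from 1 set of KO animals (deviations of paired arrays correlated with r from 0.244 to 0.779 across genes). Comparisons with WT had no block, and KO animals entered as the mean of both layers. Per-array values are given for members called between the layers, or called against WT with their direction kept with the array sets as a term. They are also given for Dync1h1, Dynll1, Dctn1 and Dctn2. Of these, Dctn1 was not a bright member. At a mean of 8.17 it was the dimmest dynactin subunit by the brightest probe of each. Members, gene lists and the rule for naming were chosen with earlier results of these data known. Fits were tested on simulated data. Labels do not say whether arrays of 1 group were processed together.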

Additional observations from a re-analysis of the deposited data

Results flagged for a closer look

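Groups of 5 arrays were searched for a single array apart from the other 4, by Dixon's criterion at 0.71, over 126 groups of the 42 motor genes. Chance alone flags about 1 group in 20, and 8 were flagged. Outer array 5 stood apart for Dync1i1 (log2 signal 9.51), Dync1li2 (8.49) and Dynlt3 (6.98). Inner array 5 stood apart for Dynlt3 (7.34) and Kif27 (4.63), and inner array 1 for Dctn2 (12.83). In WT, array 5 stood apart for Dync1i2 (12.49) and array 3 for Kifc3 (5.78). Animal 5 thus gave 5 of the 8, and it is the KO animal whose arrays carry no shift.

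For 6 genes called against WT in a layer, the difference from WT was not the same in the 2 layers, tested as outer minus inner within animals. Kif4 (−0.77), Kifc2 (−0.62), Kif11 (−0.57), Dynlt3 (−0.33) and Kif5c (−0.28) stood lower against WT in the outer than in the inner layer, and Dynll2 (0.64) higher. Of all genes 21.0% passed between the layers, and the share that also passed against WT is not given here. Kif11 passed the background filter only through the inner arrays. With the array sets as a term Dynlt3 differed from WT by 0.14 in the inner and −0.22 in the outer layer.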

How the results depend on the processing

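Counts of motor genes called were 9 between the layers, 11 in the inner layer, 5 in the outer layer and 6 over KO animals against WT. With median scaling and no background correction they were 1, 1, 2 and 3, beside 1.22%, 5.02%, 6.58% and 10.2% of all genes. That scaling moved the median of all genes from −0.07 to 0.06 in the outer layer against WT. With the authors' scores the counts were 5 between the layers, 6 in the inner and 2 in the outer layer, beside 18%, 12.1% and 4.67% of all genes. Quantile normalization without background correction gave 9 in the outer layer, beside 20.6% of all genes. Without a filter on dim probes 1 passed there, beside 3.93%. Without the arrays or animals high in muscle or bone transcripts, the counts were 1 between the layers and 0 in the outer layer and over KO animals. Of all genes 3.87%, 0.0228% and 0% passed there. Leaving out 1 replicate at a time gave 4 to 6 between the layers, 6 to 11 in the inner layer, 0 to 10 in the outer layer and 0 to 10 over KO animals. The shares of all genes called in these fits were 11.7% to 15.1%, 19.6% to 38.7%, 0.0342% to 31.4% and 0.148% to 36.1%. Animals 1 to 4 alone gave 4 between the layers, beside 14.2% of all genes.

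Without the replicate block 2 motor genes passed between the layers, beside 8.32% of all genes, with 1 mitotic and 1 transport kinesin lower. A replicate block was also set on the shared numbers of KO and WT, which do not pair animals (r of deviations from −0.306 to 0.480). It gave 7 in the inner layer, 0 in the outer layer and 0 over KO animals, beside 20.5%, 0.0456% and 0.0114% of all genes. With the array sets as a term, or on the unshifted arrays alone, the count was 0 in each comparison with WT. One fit of all 15 arrays had the animal as a random block and the array sets as a term. It gave 1 in the inner layer and 0 in the outer layer and over KO animals, beside 1.25%, 0.0114% and 0.0228% of all genes. In these 3 settings Dynlt3 turned to −0.22, −0.22 and −0.21 in the outer layer against WT and to −0.040 in each over KO animals. Kif21b turned to −0.11 in each over KO animals, and in the last fit to −0.0435 in the outer layer.

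The 4 mitotic kinesins lower in the outer layer were 2 with quantile normalization alone, 0 with median scaling, 0 with the authors' scores, 2 with probes detected on all 15 arrays, 2 in animals 1 to 4, 1 without the animals high in muscle or bone transcripts and 2 to 3 leaving out 1 animal. An alternative chosen after seeing the data, only the mitotic kinesins detected on all 15 arrays, also gave 2. The 3 transport kinesins were 0 with median scaling, 1 in animals 1 to 4, 0 without the animals high in muscle or bone transcripts and 1 to 2 leaving out 1 animal. Between the layers, 26.3% of all genes passed with quantile normalization alone. With probes detected on all 15 arrays, 27.3% of the 7092 genes kept did. The cause of the changes in the kinesin counts was not tested. Over all genes the share of calls that were higher was 45.7% between the layers, 46.7% in the inner layer, 54.8% in the outer layer and 50.8% over KO animals. With median scaling the last 3 were 87.7%, 93.6% and 93.8%, and with the authors' scores the first was 59.3% and the last 2 were 71.1% and 68.3%. Between the layers 1841 genes were called in all, against 107 with median scaling and 729 without the block. Signal over background limits the 8 members detected on fewer than 15 arrays.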
